A study of Mus musculus with 6 samples.

Results

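The V0 and V1 interneuron transcription factors were followed gene by gene in neurons of the preBötzinger Complex (preBötC), the medullary site that generates the rhythm of breathing. The 9 genes Dbx1, Evx1, Evx2, Pax2, Pax8, En1, Lhx1, Lhx5 and Foxp2 were chosen by name, for their place in the ventral interneuron code, from the 49568 gene names measured. Of the 9, 8 had reads in at least 1 sample. The study pooled 15 neurons into each of 6 RNA samples, every pool from its own mouse at postnatal day 2. All mice were Dbx1CreERT2; Rosa26tdTomato offspring, in which a tamoxifen-inducible Cre driven from Dbx1 removes a stop cassette so that cells descending from Dbx1-expressing progenitors fluoresce with tdTomato. The dams received tamoxifen during gestation. The 3 Dbx1 pools hold fluorescent neurons, and the 3 non-Dbx1 pools hold neuronal somata of the same region without fluorescence. The non-Dbx1 neurons are therefore defined by the absence of a label and not by a lineage of their own, and a descendant of a Dbx1 progenitor in which Cre did not act would carry no label. Neurons were drawn up by micropipette from slices, and RNA was amplified as complementary DNA. Values are reads per kilobase of exon scaled to the reads on genes of each sample (RPKM). Comparison of levels between genes is limited, because the exon length used exceeded the merged exons for some of the 9 genes. Because cells were pooled, a lower RPKM from fewer cells of a type and one from less RNA per cell cannot be told apart.

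In the embryonic hindbrain and spinal cord, stripes of progenitors along the dorsoventral axis each make named classes of neurons. Progenitors of the p0 stripe express the homeodomain factor Dbx1 and give rise to V0 interneurons, while the neighbouring p1 stripe gives rise to V1 interneurons. Ventral V0 cells turn on Evx1 and Evx2, and Evx1 holds them to the V0 fate and keeps them from acquiring the V1 factor En1. Dorsal V0 cells and V1 cells are mostly inhibitory and share the paired-box factors Pax2 and Pax8, and the LIM homeodomain factors Lhx1 and Lhx5 are used across V0, V1 and several dorsal classes. V1 cells express En1, and a subset of them goes on to express Foxp2. In mice without Dbx1 no preBötC rhythm forms, which makes the fate of p0 descendants central to the study of breathing.

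Of the 9 genes, 6 form pairs of paralogues, and their coding sequences were compared first because short single-end reads have to tell the members of a pair apart. For each pair, the most alike stretch of 50 bases within a coding exon is printed from the GENCODE vM21 transcripts, 5′ to 3′ on the coding strand, with capitals at the bases that differ between the pair. Lhx1 and Lhx5 differed at 3 of 50 bases, between chr11:84524009-84524058 on the minus strand and chr5:120432401-120432450 on the plus strand of GRCm38.
Lhx1: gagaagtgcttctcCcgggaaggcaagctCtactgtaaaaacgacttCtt
Lhx5: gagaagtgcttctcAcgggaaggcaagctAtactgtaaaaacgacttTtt
Evx1 and Evx2 differed at 4 of 50 bases, between chr6:52316533-52316582 on the plus strand and chr2:74656286-74656335 on the minus strand.
Evx1: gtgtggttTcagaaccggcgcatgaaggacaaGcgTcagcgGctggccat
Evx2: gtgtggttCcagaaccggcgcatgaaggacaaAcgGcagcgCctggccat
Pax2 and Pax8 differed at 5 of 50 bases, between chr19:44761688-44761737 on the plus strand and chr2:24443088-24443137 on the minus strand.
Pax2: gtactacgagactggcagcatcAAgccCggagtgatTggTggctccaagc
Pax8: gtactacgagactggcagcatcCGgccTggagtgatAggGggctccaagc
No stretch of 35 or 50 transcript bases was identical between the members of any of the 3 pairs. Dbx1, Evx2, Pax2, En1 and Lhx1 shared no stretch of 35 bases, on either strand, with transcripts of any other gene. Evx1 shared 1.43% of its stretches of 35 bases with its antisense neighbour Evx1os, and Pax8 shared 4.95% with the overlapping transcript Gm13415. Lhx5 and Foxp2 shared 2.07% and 1.25% of such stretches with other genes, 947 and 1126 of them.

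Dbx1 (ENSMUSG00000030507, chr7:49631499-49636849, minus strand) was without a read in all 6 samples, those of labelled neurons included. A floor of 3 reads would have given 0.152 to 0.222 RPKM, depending on the sample. The gene that defines the lineage was thus below detection at postnatal day 2 in labelled and unlabelled neurons alike. Such floors account for counting error and nothing else, because amplification makes several reads out of 1 molecule. Of the 13 other progenitor factors listed, 11 were above 0 in at least 1 sample. Among these, Prdm12 had only 1 read, in Dbx1 replicate 2, under the floor of 3 reads. Pax3 and Neurog1 were also above 0 only in Dbx1 replicate 2, at 0.393 and 0.160 RPKM. For both, the lowest read number that fits is 1, but it implies 338 and 828 exon bases against 6187 and 1686 merged. Their reads are therefore not fixed. Pax7 and Neurog2 were at 0 in all 6. None of the 7 progenitor factors tested had an unadjusted limma p under 0.05, with 4 L2FC (log2 fold change of RPKM + 1, Dbx1 minus non-Dbx1) above 0 and 3 below. Dbx2, the paralogue of Dbx1 expressed in a wider stripe of progenitors, measured 1.34, 10.3 and 9.89 RPKM in the Dbx1 pools and 7.15, 6.82 and 9.65 in the non-Dbx1 pools. Nkx6-2, a factor of the p1 and more ventral stripes, measured 6.63, 2.67 and 9.003 RPKM against 2.35, 4.2 and 34.2. Nkx6-1, its paralogue in more ventral stripes, measured 5.17, 0.339 and 23.1 RPKM against 3.84, 0.894 and 12.3. The groups overlapped for all 3.

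**Figure D1:**
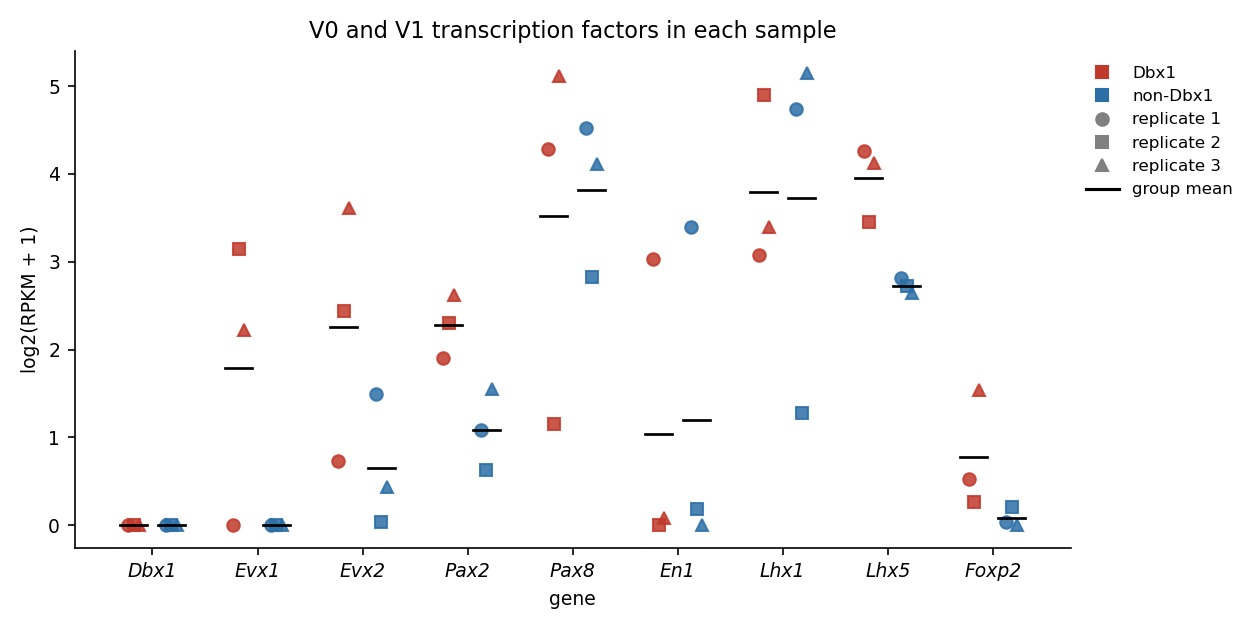
Level of each of the 9 genes in each sample as log2(RPKM + 1), with Dbx1 samples in red, non-Dbx1 samples in blue, replicate numbers by marker shape and group means as black lines. Lhx5, Pax2 and Foxp2 have every Dbx1 sample above every non-Dbx1 sample, while Pax8, En1 and Lhx1 spread widely within both groups.

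Evx1 (ENSMUSG00000005503, chr6:52313498-52318378, plus strand), the determinant of the ventral V0 class, measured 0, 7.84 and 3.67 RPKM in Dbx1 replicates 1, 2 and 3, from 0, 231 and 100 reads. It was at 0 in all 3 non-Dbx1 samples, where 3 reads would have given 0.0813 to 0.119 RPKM. Evx1 was therefore read in 2 of 3 pools of labelled neurons and in no pool of unlabelled ones. The mean of the Dbx1 samples, 3.84 ± 3.92 RPKM (SD, n = 3), was at least 32.4-fold higher than the non-Dbx1 samples, taking the highest of the floors per library. Because the gene was above 0 in only 2 samples it did not enter the fit of genes above 0 in at least 3 samples. The exact permutation test, two-sided, gave p = 0.4, where the smallest p that 3 samples against 3 allow is 0.1. With all genes above 0 in at least 1 sample entered, the limma FDR was 0.784.

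The long antisense RNA Evx1os is transcribed from the opposite strand next to Evx1, and its exons cover 73 bases of those of Evx1, or 2.54%. It measured 0.422, 25.7 and 3.72 RPKM in the Dbx1 pools and 0.0943, 0 and 0 in the non-Dbx1 pools. Evx1os was high in the same 2 Dbx1 samples as Evx1. Reads were counted without regard to strand, so in the shared bases the transcripts cannot be told apart.

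Evx2 (ENSMUSG00000001815, chr2:74652991-74659557, minus strand), the paralogue of Evx1 in the same V0 cells, measured 0.660, 4.40 and 11.2 RPKM in the Dbx1 pools, from 28, 177 and 417 reads. The non-Dbx1 samples gave 1.83, 0.0219 and 0.357 RPKM, from 63, 1 and 18 reads. The 2 highest values belonged to the Dbx1 samples that held Evx1, and the remaining Dbx1 value lay below the highest non-Dbx1 one. The ratio of the group means was 7.39. Its L2FC came to 1.60 ± 0.818 (standard error, SE, with limma FDR = 0.917, 95% interval -0.27 to 3.47), so the difference did not pass the threshold of FDR under 0.1. Without Dbx1 replicate 3 it was 0.93. Non-Dbx1 replicate 1 held 63 reads of Evx2 and none of Evx1, so Evx2 was also read where Evx1 was not.

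En1 (ENSMUSG00000058665, chr1:120602418-120607992, plus strand), the defining factor of V1 interneurons, measured 7.19, 0 and 0.0548 RPKM in the Dbx1 pools, from 150, 0 and 1 reads. The non-Dbx1 samples gave 9.55, 0.134 and 0 RPKM, from 162, 3 and 0 reads. En1 was thus high in exactly 1 pool of each group and at or under the floor of 3 reads, 0.121 to 0.164 RPKM, in the other 4. Between the groups the L2FC was -0.16 ± 1.11 (SE, limma FDR = 0.993, 95% interval -2.70 to 2.38). Leaving out non-Dbx1 replicate 1 turned it to 0.95, and leaving out Dbx1 replicate 1 gave -1.15. Dbx1 replicate 1, the labelled pool with En1, was the labelled pool in which Evx1 was at 0, and the 2 labelled pools with Evx1 held at most 1 read of En1. None of the 6 samples held more than 1 read of each gene, and Pearson's r of their log2(RPKM + 1) was -0.50 over the 6 samples, given as a description.

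Foxp2 (ENSMUSG00000029563, chr6:14901349-15441977, plus strand), a forkhead factor of a V1 subset and of other brainstem neurons, was low throughout. It measured 0.444, 0.205 and 1.91 RPKM in the Dbx1 pools, from 96, 42 and 362 reads, and 0.0285, 0.151 and 0 in the non-Dbx1 pools, from 5, 35 and 0 reads. Every Dbx1 sample lay above every non-Dbx1 sample, with a ratio of means of 14.3, although Dbx1 replicate 2 exceeded non-Dbx1 replicate 2 by little and Dbx1 replicate 3 stood far above the other 2. Its L2FC came to 0.70 ± 0.348 (SE, limma FDR = 0.912), and to 0.32 without Dbx1 replicate 3. The exact permutation test gave p = 0.1, the smallest possible. Of the 2 pools with En1, Dbx1 replicate 1 held 0.444 RPKM of Foxp2, the next to highest value, and non-Dbx1 replicate 1 held 0.0285, while the highest value came from Dbx1 replicate 3, where En1 had 1 read. The value is sensitive to the added constant, with an L2FC of 2.23 at a pseudocount of 0.1.

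**Figure D2:**
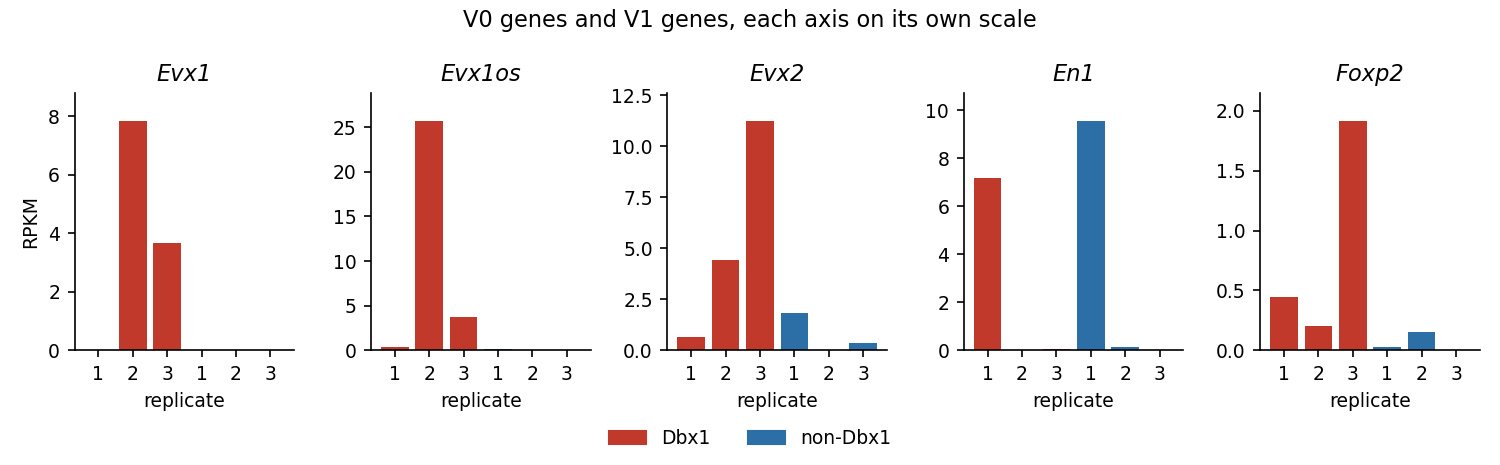
RPKM of the V0 genes Evx1, Evx1os and Evx2 and of the V1 genes En1 and Foxp2 in each replicate of the Dbx1 (red) and non-Dbx1 (blue) groups, each panel on its own axis from 0. Evx1 appears in Dbx1 replicates 2 and 3, at 7.84 and 3.67 RPKM, while En1 appears in Dbx1 replicate 1 and non-Dbx1 replicate 1, at 7.19 and 9.55 RPKM.

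Pax2 (ENSMUSG00000004231, chr19:44756045-44837871, plus strand), a paired-box factor of inhibitory interneurons, measured 2.75, 3.95 and 5.16 RPKM in the Dbx1 pools and 1.11, 0.547 and 1.93 in the non-Dbx1 pools. The read numbers behind these were 173, 235 and 284 against 57, 37 and 144. The groups did not overlap (exact permutation test, p = 0.1). The L2FC of 1.19 (limma FDR = 0.912) stayed between 0.96 and 1.42 when any 1 sample was left out. Its 95% interval ran from -0.09 to 2.47.

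Pax8 (ENSMUSG00000026976, chr2:24420560-24475599, minus strand), the related factor with which Pax2 shares target sites, was far more variable. It measured 18.5, 1.22 and 33.5 RPKM in the Dbx1 pools, from 1169, 73 and 1853 reads. The non-Dbx1 samples gave 22.1, 6.09 and 16.3 RPKM, from 1132, 414 and 1220 reads. Dbx1 replicate 2 was the lowest of all 6 and Dbx1 replicate 3 the highest, a 27.5-fold range inside the group. Between the groups the L2FC was -0.31 ± 0.947 (SE, limma FDR = 0.984), and it was 0.88 without Dbx1 replicate 2. The 95% interval from -2.47 to 1.86 does not fix a direction. The partly overlapping transcript Gm13415, which covers 367 bases or 6.06% of the Pax8 exons, had reads only in Dbx1 replicate 3 (1.42 RPKM) and non-Dbx1 replicate 3 (3.15 RPKM).

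Lhx1 (ENSMUSG00000018698, chr11:84518284-84525535, minus strand), a LIM homeodomain factor, measured 7.44, 28.8 and 9.52 RPKM in the Dbx1 pools, from 327, 1198 and 366 reads. The non-Dbx1 samples gave 25.8, 1.42 and 34.4 RPKM, from 920, 67 and 1792 reads. The highest and the lowest value both fell in the non-Dbx1 group. Its L2FC came to 0.07 ± 0.972 (SE, limma FDR = 0.996). It turned to -1.15 without non-Dbx1 replicate 2 and to -0.48 without Dbx1 replicate 2, so no direction can be given.

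Lhx5 (ENSMUSG00000029595, chr5:120431699-120441223, plus strand), the closest relative of Lhx1, had the smallest fold range within each group among the genes read in all of its samples. It measured 18.2, 9.98 and 16.4 RPKM in the Dbx1 pools, from 390, 202 and 307 reads. The non-Dbx1 samples gave 6.04, 5.61 and 5.24 RPKM, from 105, 129 and 133 reads. All 3 Dbx1 samples lay above all 3 non-Dbx1 samples, the means being 14.9 ± 4.34 and 5.63 ± 0.399 RPKM (SD, n = 3 each) and their ratio 2.64. The L2FC was 1.22, its standard error 0.361 and its 95% interval 0.40 to 2.05. The limma p was 0.00889 before adjustment and the FDR over all genes 0.804, so Lhx5 did not pass the threshold either. The exact permutation test gave p = 0.1, the smallest possible. Leaving out any 1 sample kept the L2FC between 1.06 and 1.47.

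Lhx5 overlaps the antisense RNA Gm27199 over 69 exon bases, or 2.57% of its exons. Gm27199 measured 6.46, 27.1 and 15.0 RPKM in the Dbx1 pools and 19.9, 17.3 and 31.8 in the non-Dbx1 pools, and so was not ordered between the groups as Lhx5 was.

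Across the 9 genes, 7 entered the fit and none passed FDR under 0.1 in either direction. The fit called 0% of the 17614 genes higher in Dbx1 and 0.00568%, the single gene D930028M14Rik, higher in non-Dbx1 (limma FDR = 0.0186). At an unadjusted limma p under 0.05, 1 of the 7 was higher in Dbx1 (Lhx5) and none higher in non-Dbx1, where 2.73% and 2.48% of all genes tested were. The groups did not overlap, with every Dbx1 sample above, for 3 of the 7 (Lhx5, Pax2 and Foxp2), against 5.35% of all genes, and none of the 7 had every non-Dbx1 sample above, against 5.24% of all genes. The L2FC was above 0 for 5 of the 7, against 50.8% of all genes. The median L2FC of the 7 was 0.70, beside 0.01 over all genes.

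**Figure D3:**
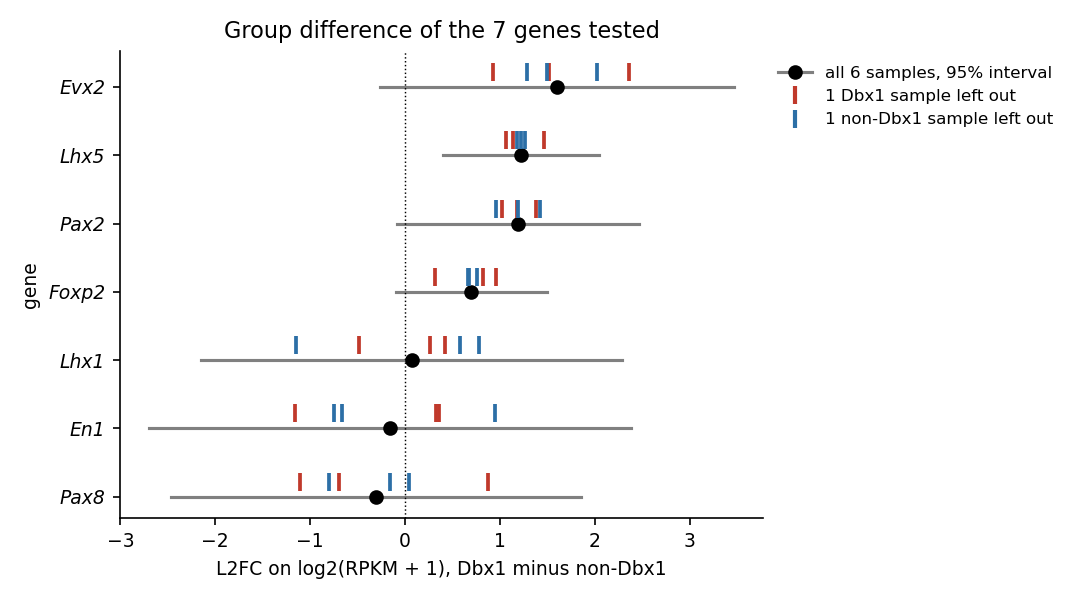
L2FC on the log2(RPKM + 1) scale for the 7 genes tested, with 95% intervals of limma as grey lines and ticks for the value with 1 Dbx1 sample (red) or 1 non-Dbx1 sample (blue) left out. Only the interval of Lhx5, 0.40 to 2.05, lies wholly above 0, and the ticks of Lhx1, En1 and Pax8 fall on both sides of 0.

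In the Dbx1 samples the order of mean RPKM was Pax8 (17.8 ± 16.2), Lhx1 (15.3 ± 11.8), Lhx5 (14.9 ± 4.34), Evx2 (5.43 ± 5.36), Pax2 (3.95 ± 1.20), Evx1 (3.84 ± 3.92), En1 (2.41 ± 4.13) and Foxp2 (0.855 ± 0.926), each with its SD over 3 samples. Of the 7 neighbouring pairs in that order only Lhx5 and Evx2 differed by more than the larger of their SDs. In the non-Dbx1 samples the order was Lhx1 (20.5 ± 17.1), Pax8 (14.8 ± 8.08), Lhx5 (5.63 ± 0.399), En1 (3.23 ± 5.48), Pax2 (1.20 ± 0.695), Evx2 (0.735 ± 0.959) and Foxp2 (0.0597 ± 0.0800), and only Pax8 and Lhx5 differed by more than the larger SD among 6 neighbouring pairs. Of the shared factors, Pax8, Lhx1 and Lhx5 thus headed both groups by mean. The mean of Pax2 lay below Evx2 in the Dbx1 pools and below En1 in the non-Dbx1 pools, within the larger SD each time. Pax2 exceeded Evx2 in Dbx1 replicate 1 (2.75 against 0.660 RPKM) but not in Dbx1 replicates 2 and 3. It exceeded En1 in non-Dbx1 replicates 2 and 3 but not in non-Dbx1 replicate 1. In each sample 5 to 8 of the 9 genes were above 0, and 3 to 7 reached 1 RPKM. Their summed RPKM ran from 55.2 to 81.5 in the Dbx1 pools and was 66.4, 14.0 and 58.2 in the non-Dbx1 pools.

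The balance within each pair of paralogues was compared sample by sample, as the log2 ratio of (RPKM + 1), which still depends on the added constant where a gene is low. The log2 ratio of Lhx5 over Lhx1 was 1.19, -1.44 and 0.73 in the Dbx1 pools and -1.93, 1.45 and -2.50 in the non-Dbx1 pools. Each factor exceeded the other in some samples of both groups, and the difference of 1.15 was within the spread (exact permutation test, p = 0.5, adjusted over 3 pairs 0.75). It was 0.64 and 1.95 without Dbx1 replicates 1 and 2, and 0.68, 2.37 and 0.40 without non-Dbx1 replicates 1, 2 and 3. Pax8 exceeded Pax2 in 5 of 6 samples, with log2 ratios of Pax2 over Pax8 of -2.38, 1.15 and -2.49 against -3.45, -2.20 and -2.56. Only Dbx1 replicate 2 held more Pax2 than Pax8. The group means differed by 1.50 (exact permutation test, p = 0.4, adjusted 0.75), by 0.30 without Dbx1 replicate 2, and by 2.23 with a pseudocount of 0.1 (exact permutation test, p = 0.1). The log2 ratio of Evx2 over Evx1 was 0.73, -0.71 and 1.39 against 1.50, 0.03 and 0.44, a difference of -0.19, or -1.02 with a pseudocount of 0.1. Evx1 was at 0 in 4 of the 6 samples, where this value is set by Evx2 and the added constant alone, so no balance of the groups is read from it. Dbx1 replicate 2 was the only sample with more Evx1 than Evx2.

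**Figure D4:**
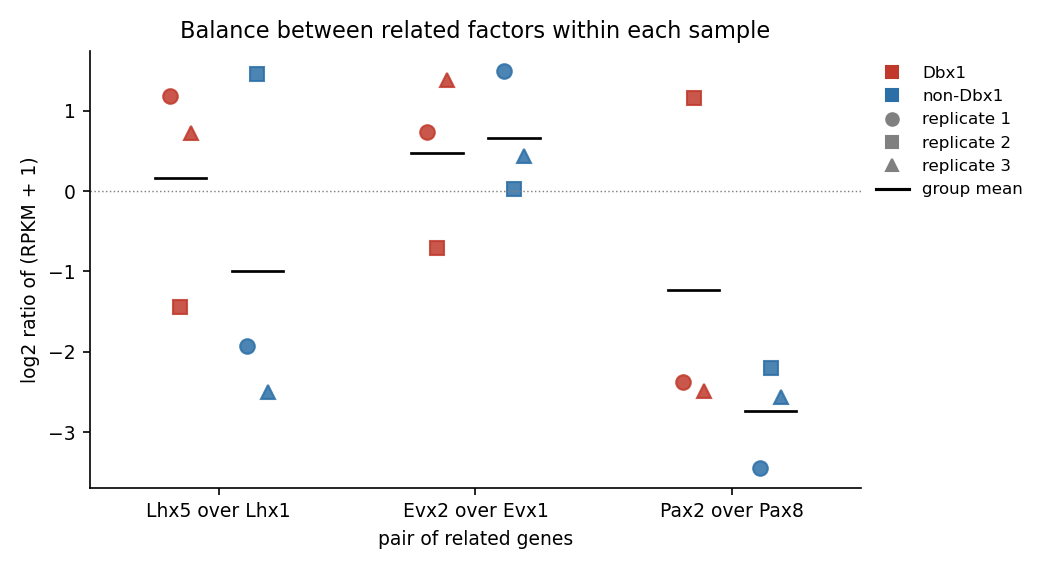
Log2 ratio of (RPKM + 1) between related genes within each sample, Dbx1 in red and non-Dbx1 in blue, with replicate numbers by marker shape and group means as black lines. Dbx1 replicate 2 alone lies above 0 for Pax2 over Pax8, at 1.15, and alone below 0 for Evx2 over Evx1, at -0.71.

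The families to which these factors belong were compared as a whole. Pax2 and Pax8 made up 86.3% to 99.9% of the summed RPKM of the 9 Pax genes in every sample. Pax4, a factor of pancreatic endocrine cells, came next in the family by mean, through a single value of 1.32 RPKM in non-Dbx1 replicate 1. The lowest read number that fits this value is 2, but it implies 235 exon bases against 1445 merged. The reads behind it are therefore not fixed. Of the 12 LIM homeobox genes, Lhx1 and Lhx5 held 100%, 99.9% and 99.6% of the RPKM in the Dbx1 pools and 94.3%, 61.7% and 74.8% in the non-Dbx1 pools. The other 10 genes summed to 0, 0.0458 and 0.110 RPKM in the Dbx1 pools and to 1.93, 4.37 and 13.3 in the non-Dbx1 pools. None of the 10 was above 0 in every non-Dbx1 pool. The sum of non-Dbx1 replicate 2 includes Lmx1b at 1.81 RPKM and Lhx3 at 0.397 RPKM. The lowest read numbers that fit, 2 and 1, imply 129 and 295 exon bases against 4880 and 3045 merged. The reads behind these 2 values are therefore not fixed either. Isl1, a factor of motor neurons and some sensory relay cells, was at 0 in 5 samples and at 13.3 RPKM in non-Dbx1 replicate 3. Foxp2 took 16.4%, 12.2% and 43.4% of the RPKM of the 4 Foxp genes in the Dbx1 pools and 1.27%, 3.54% and 0% in the non-Dbx1 pools. Foxp4 measured 1.09, 1.41 and 1.36 RPKM against 1.71, 2.78 and 1.90, and Foxp1 1.17, 0.0613 and 1.14 against 0.4998, 1.31 and 0.975.

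**Figure D5:**
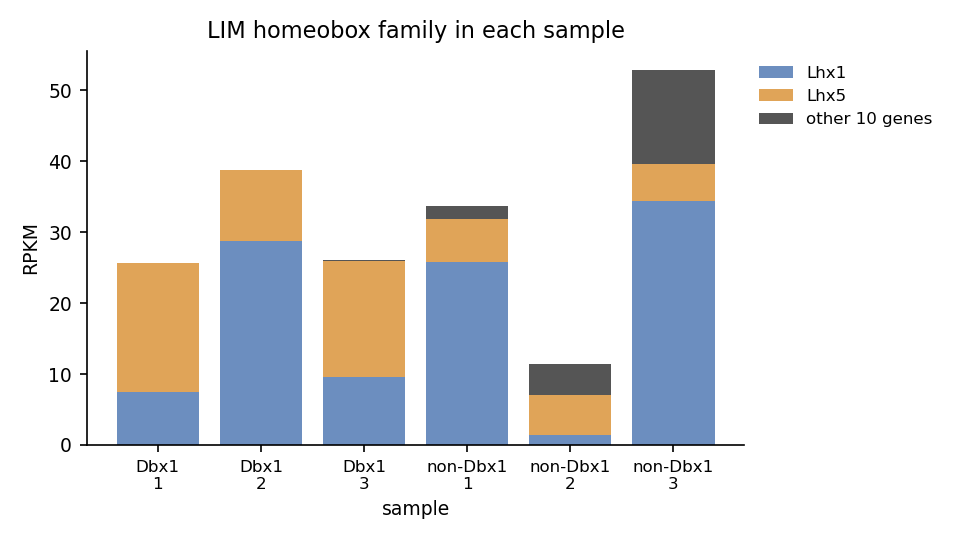
Summed RPKM of the 12 LIM homeobox genes in each sample, stacked as Lhx1 (blue), Lhx5 (orange) and the other 10 genes (dark grey). The grey part is at most 0.110 RPKM in the Dbx1 pools and reaches 13.3 RPKM in non-Dbx1 replicate 3.

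LIM homeodomain factors act through the bridging proteins Ldb1 and Ldb2, which bind Ssbp proteins and are competed for by the LIM-only proteins Lmo1 to Lmo4. All 9 of these cofactors were tested, 7 with an L2FC above 0. None passed FDR under 0.1, and 1 had an unadjusted limma p under 0.05. Ssbp2, which stabilises Ldb proteins, measured 8.78, 14.1 and 9.60 RPKM in the Dbx1 pools and 3.26, 6.38 and 4.68 in the non-Dbx1 pools (L2FC = 1.04, limma FDR = 0.912). Lmo4 measured 11.6, 28.2 and 25.4 RPKM against 14.3, 10.5 and 11.98, Lmo1 42.8, 11.3 and 5.23 against 2.60, 7.62 and 11.2, and Ssbp4 8.54, 14.2 and 20.2 against 13.5, 19.2 and 16.5. The groups overlapped for these 3.

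Of 12 further factors of V0 and V1 subsets, 10 had reads in some sample and 8 were tested. The L2FC was above 0 for 4 and below 0 for 4, with no unadjusted limma p under 0.05. Sp8, which marks V1 subsets, and En2, the paralogue of En1, were at 0 in all 6 samples. Otp, a V1 subset factor, measured 0.602, 7.43 and 8.81 RPKM in the Dbx1 pools against 4.16, 0.0349 and 0 in the others, and Bhlhe22, a basic helix-loop-helix repressor, 7.86, 8.90 and 0.516 against 8.19, 0 and 3.17. Otp was low in Dbx1 replicate 1, the labelled pool with En1, and high in the other labelled pools.

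Of 20 factors of neighbouring domains, 15 had reads in some sample and 6 were tested. Among the 15, Wt1 and Sim1 had 1 read each, in 1 sample. Vsx1, Lhx3, Nkx2-2, Mnx1 and Lmx1b were also above 0 in 1 sample only, but their reads are not fixed. The lowest numbers that fit imply 757, 295, 134, 1064 and 129 exon bases against 3791, 3045, 2875, 2250 and 4880 merged. Of the 6 tested, 3 had an unadjusted limma p under 0.05, all higher in non-Dbx1, though none passed FDR under 0.1. Gata3, a factor of V2b and serotonergic neurons, measured 3.02, 0.0968 and 2.54 RPKM in the Dbx1 pools and 29.0, 7.41 and 21.6 in the non-Dbx1 pools (L2FC = -2.84, limma FDR = 0.724). Gata2, its partner, measured 0.118, 0.219 and 0.203 RPKM against 2.78, 3.86 and 9.92 (L2FC = -2.31, limma FDR = 0.724). The paper, with DESeq2 on counts, reports Gata2 as differentially expressed, higher in the non-Dbx1 neurons. Lbx1, a factor of dorsal inhibitory and sensory relay classes, measured 2.18, 2.30 and 12.4 RPKM against 2.74, 3.48 and 7.64.

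For Evx1, En1 and Lhx5 the genes with the most similar pattern were sought among those with a mean of at least 10 RPKM, by Pearson's r of log2(RPKM + 1) over the 6 samples. With 6 points and 4425 genes compared (4424 for Lhx5), high values are bound to arise, so these are descriptions. Evx1 was most like Malat1 (r = 0.99), Ddrgk1 (r = 0.98) and Lmo4 (r = 0.97). Malat1, an abundant nuclear long non-coding RNA, measured 59.1, 227 and 175 RPKM in the Dbx1 pools and 68.7, 59.5 and 58.3 in the non-Dbx1 pools, high in the 2 samples that held Evx1. En1 was most like Atp5e (r = 0.99), Dpysl4 (r = 0.96) and Ruvbl2 (r = 0.95), of which Atp5e, a subunit of mitochondrial ATP synthase, measured 86.0, 63.9 and 67.5 RPKM against 93.8, 68.5 and 64.3. Lhx5 was most like Stoml2 (r = 0.99), Lrrc3b (r = 0.97) and Asah1 (r = 0.96), of which Lrrc3b had the widest range, 44.1, 17.5 and 28.0 RPKM against 8.09, 10.9 and 9.82. Among the 9 genes themselves the highest r were those of Evx1 with Evx2 (0.82), Evx2 with Pax2 (0.80), and Evx1 with Pax2, Pax2 with Lhx5 and Lhx5 with Foxp2 (0.76 each).

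Excitatory and inhibitory transmitter genes were both read in all 6 samples. Slc17a6, the vesicular glutamate transporter of excitatory brainstem neurons, measured 47.2, 128 and 54.9 RPKM in the Dbx1 pools and 31.9, 35.1 and 13.6 in the non-Dbx1 pools (L2FC = 1.44, limma FDR = 0.870). Gad2, which makes GABA, measured 50.9, 23.3 and 55.6 RPKM against 50.9, 57.6 and 60.03, and Slc6a5, the neuronal glycine transporter, 24.2, 13.1 and 64.2 against 53.6, 17.5 and 40.9. Dbx1 replicate 2 held the highest Slc17a6, the lowest Gad2 and Slc6a5, the highest Evx1 and the lowest Pax8.

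Reads on genes ran from 6464675 to 9432958 per sample, with a mean of 7815666, and the 6 neuron markers summed to 1364 to 2202 RPKM in the Dbx1 pools and 1326 to 1828 in the non-Dbx1 pools. The non-Dbx1 samples differed among themselves. Non-Dbx1 replicate 2 held catecholaminergic markers (all 5 above 0, summed 693 RPKM against 2.19 to 12.4 in the Dbx1 pools, with Dbh at 339 RPKM, and Dbh at 0 in every Dbx1 sample) and the lowest sum of the 9 genes. Non-Dbx1 replicate 1 held oligodendrocyte markers (8 of 8 listed above 0 in some sample, summed 459 RPKM against 20.1 to 73.6 in the Dbx1 pools). The sum of the erythroid markers was higher in every non-Dbx1 pool, at 14058, 1198 and 733 RPKM against 90.3 to 507 in the Dbx1 pools. Of the 5, 4 had an unadjusted limma p under 0.05. The remaining marker, Alas2, measured 0.648, 0.799 and 2.35 RPKM in the Dbx1 pools and 112, 0.268 and 0.790 in the non-Dbx1 pools. The L2FC of Lhx5 was 1.26 without non-Dbx1 replicate 1 and 1.22 without non-Dbx1 replicate 2, that of Pax2 1.19 and 0.96, and that of Foxp2 0.68 and 0.76. In the other markers, the motor neuron list summed to 5.18 to 14.1 RPKM in the Dbx1 pools and 2.95 to 120 in the non-Dbx1 pools, the endothelial list to 0.0887 to 0.595 and 0.0244 to 69.3, the astrocyte list to 13.9 to 20.5 and 20.5 to 35.6, and the microglial list to 0.202 to 2.97 and 0.530 to 1.52, with Itgam and Tmem119 at 0. Of the serotonergic markers, Slc6a4 and Fev were at 0, and Tph2 was read only in Dbx1 replicate 1, at 3.36 RPKM. The part of these cells in the values of the 9 genes was not tested beyond the fits with a sample left out.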

How the data were processed

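The authors lysed 15 neurons per sample, amplified complementary DNA, sequenced single-end reads, aligned them to mm10 with Tophat2 and counted them on genes by name with HTSeq, without regard to strand. The authors deposited RPKM for 49568 gene names per sample, with exon length from an Ensembl annotation and no scaling between samples. The release is not given in the sources used here. Reads on genes per sample, and reads per gene, were recovered from the steps between RPKM values, for 26924 of 27067 genes above 0 (99.5%). Where several whole numbers would fit, the lowest was taken. For genes above 0 in 1 sample the exon length this implies can be far too short, as for Pax4 (235 against 1445 merged bases). Read numbers of such genes are lower limits. The recovered exon length equalled the merged exons of GENCODE vM21 for En1 and Lhx5, and was 1.27 to 1.66 times longer for the other 6 genes with reads, which lowers their RPKM against other genes but not between samples.

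Positions came from GENCODE vM21 on GRCm38, matched by name (95.3% of names). Values of log2(RPKM + 1) were tested with limma 3.58.1 (lmFit, eBayes with a trend) in R 4.3.3 over 17614 genes above 0 in at least 3 samples, two-sided, Benjamini-Hochberg FDR under 0.1, and tested on simulated data. The authors tested counts with DESeq2. Single comparisons used exact permutation tests over the 6 samples. With 3 against 3 mice, p-values measure the spread between pools of 15 neurons. Intervals are limma's 95%.

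The 9 genes, the other lists and the tests were chosen with earlier results of these data known. All 9 genes are named. Genes of the other lists are named where among the 3 highest mean RPKM of their list or at unadjusted limma p under 0.05, which was not carried through for marker lists, and for Evx1, En1 and Lhx5 the 3 genes most alike. Some genes that the rule would name are not reported here. D930028M14Rik, the overlapping transcripts and genes of a list at 0 or with few recovered reads were named after their values were seen. The same holds for genes of the cofactor machinery outside that rule. Alternatives were the pseudocount, filters, scaling, variance model, voom on recovered reads, replicate block, each sample left out and, added after seeing the data, merged exon length.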

Additional observations from a re-analysis of the deposited data

How the results depend on the processing

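The L2FC of Lhx5, Pax2 and Evx2 stayed above 0 under all 14 alternatives, from 1.06 to 1.47 for Lhx5 (FDR 0.654 to 0.9996), 0.96 to 1.81 for Pax2 and 0.93 to 3.55 for Evx2, and that of Foxp2 under all 13, from 0.32 to 4.77. None of the 7 genes tested reached FDR under 0.1 in any limma fit that it entered, nor did Evx1 in the single fit that took it. The L2FC of Pax8 turned to 0.88 without Dbx1 replicate 2 and to 0.05 without non-Dbx1 replicate 1, with a lowest value of -1.10 among the fits leaving out 1 sample. That of En1 turned to 0.36, 0.32 and 0.95 without Dbx1 replicate 2, Dbx1 replicate 3 and non-Dbx1 replicate 1 (lowest -1.15). That of Lhx1 turned to -0.48 and -1.15 without Dbx1 replicate 2 and non-Dbx1 replicate 2 (highest 0.78). On RPKM without logarithm the mean difference of Pax8 and of Lhx1 changed sign, with exact permutation p = 0.9 for each. The difference in the log2 ratio of Evx2 over Evx1 turned to 0.40 without Dbx1 replicate 2 and to 0.23 without non-Dbx1 replicate 1, and was lowest, at -0.65, without Dbx1 replicate 3. The cause was not tested. Of all genes tested, 1 passed FDR under 0.1 higher in non-Dbx1, but 0 did with a pseudocount of 0.1, with all genes above 0 in at least 1 sample, with voom on recovered reads and with the replicate block, 3 (D930028M14Rik, Cmbl and Gm25190) did without the trend, and 0 to 1 did with 1 sample left out. Higher in Dbx1, 0 to 1 passed with 1 sample left out, the 1 being Gm1821 without non-Dbx1 replicate 2. With the replicate number as a block, 0 genes passed in either direction, against 440 and 379 at an unadjusted p under 0.05 (480 and 436 without it). Samples of the same number did not deviate together (r = -0.11, 0.02 and -0.05), beside -0.08 to 0.13 for samples of different numbers. The values thus show no pairing by number, but they cannot tell whether samples of a number were handled together. Merged exon lengths raised the mean of Pax2 in Dbx1 from 3.95 to 5.78 RPKM and left the order of the genes as it was in both groups. The floor of 3 reads depends on exon length and depth, from 0.0117 RPKM for Foxp2 to 0.222 for Dbx1, and a gene's level below its own floor cannot be told from 0. At a threshold of 1 RPKM, non-Dbx1 replicate 2 held 3 of the 9 genes in place of 7.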
